A study of Mus musculus with 6 samples.

Results

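RNA of isolated kidney glomeruli was examined for 10 genes that encode proteoglycans, nidogens, Fraser proteins and related glycoproteins of basement membranes. They were picked by symbol (Agrn, Hspg2, Nid1, Nid2, Col18a1, Col15a1, Tinagl1, Sparc, Frem1 and Fras1), and each of the 10 was found among the 27179 NCBI Gene identifiers measured. The rule that picks them uses no measured value, but the list itself was chosen with earlier results of these data known. Values of single libraries stand in the order of their numbers, and the numbers are not stated to pair mice across genotypes. The KO group was 3 mice (KO-1 to KO-3) in which both Parva alleles are floxed (Parva-fl/fl) and a Cre transgene directed to podocytes is present. The WT group was 3 mice (WT-1 to WT-3) of genotype Parva-fl/fl, so the controls carry the floxed alleles too, without Cre. All 6 were males aged 9 weeks on a C57BL/6 mixed background, and the labels describe mild proteinuria without saying in which group. Parva encodes alpha-parvin, an adaptor that joins integrin-linked kinase to actin where cells hold on to the matrix, and the comparison asks which glomerular RNAs differ when podocytes lose it. Glomeruli were purified whole with magnetic beads, so each library mixes podocytes with endothelial, mesangial and parietal cells and with any adhering tubule. In such bulk RNA, fewer cells of a type and less RNA per cell cannot be told apart.

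The glomerular basement membrane lies between podocytes and endothelium and is built by both. Networks of laminin and type IV collagen form its frame, nidogens bind these networks to each other, and proteoglycans such as agrin and perlecan hang charged heparan sulfate chains on it. Fras1 and Frem1 belong to a small family of very large extracellular proteins that form a complex under embryonic epithelia, and in mice the loss of either causes skin blistering before birth and can leave a kidney missing.

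Whole reads recovered from the deposited normalised counts numbered 11886828 to 20015813 in the KO libraries and 14456490 to 20552984 in the WT libraries. In 4 libraries, 10 genes counted almost only in a single library took 17.4% to 32.4% of these reads; none of the 10 genes described here was among them, and the other reads came to 11283413 to 14310785 per library. Parva had 2288, 2338 and 1942 normalised counts in KO, against 6585, 7520 and 7890 in WT, so it was lower in every library labelled KO. Markers said to fall or rise are those called lower or higher in KO by the limma rule of the next paragraph. That rule called 8.58% of all genes tested lower and 13.5% higher. Summed counts of 15 podocyte markers were 183520 to 259420 in KO and 262790 to 323200 in WT, with 6 of the 15 markers called lower and none higher. Of 15 endothelial markers 12 fell (summed counts 47273 to 58358 in KO, 69976 to 85615 in WT), and of 12 mesangial markers 10 fell (29335 to 34782 in KO, 44001 to 57171 in WT). Of 16 proximal tubule markers 15 rose, with summed counts of 264320 to 417730 in KO and 107260 to 235300 in WT, the 235300 being WT-1. Of 8 parietal epithelial markers 4 rose and 1 fell, with a median log2 fold change of 1.10. Their summed counts were 6586 to 8371 in KO and 9228 to 10615 in WT, but without Cd24a, the most counted of them and the one that fell, they were 2791 to 4044 in KO and 1770 to 2581 in WT, a sum chosen after the values were seen. All 10 distal tubule markers had a higher mean in KO and 3 rose, with summed counts of 44151, 64758 and 32349 in KO and 32415, 9445 and 17669 in WT. Of 6 smooth muscle and renin cell markers tested, 1 rose and 3 fell. No marker of these lists was at 0 in all 6 libraries. Their part in the differences below was not tested.

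The comparison between genotypes gave opposite directions within the set. Frem1 and Fras1 rose in KO, Nid1, Col15a1 and Tinagl1 fell, and Agrn, Hspg2, Nid2, Col18a1 and Sparc did not pass. Calls are from limma on log2(normalised count + 1) over 13946 genes with a mean of at least 10, with Benjamini-Hochberg adjustment over all of them and a threshold of 0.05. All 10 genes were tested. Being called higher applied to 2 of the 10, where 13.5% of all genes tested were called higher, and being called lower applied to 3 of the 10, where 8.58% were. The median log2 fold change of the 10 was -0.22, beside -0.0064 for all genes tested. KO and WT libraries did not overlap in 6 of the 10 genes (Agrn is the sixth), 2 higher and 4 lower in KO, where 23.2% of all genes were separated as higher and 21.9% as lower. For a single gene, a two-sided exact permutation test of 3 against 3 libraries cannot give a p below 0.1. Each of these 6 genes reached 0.1, as any gene with separated libraries does, here 45.1% of all genes tested. The permutation test thus adds nothing to the separation.

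**Figure D1:**
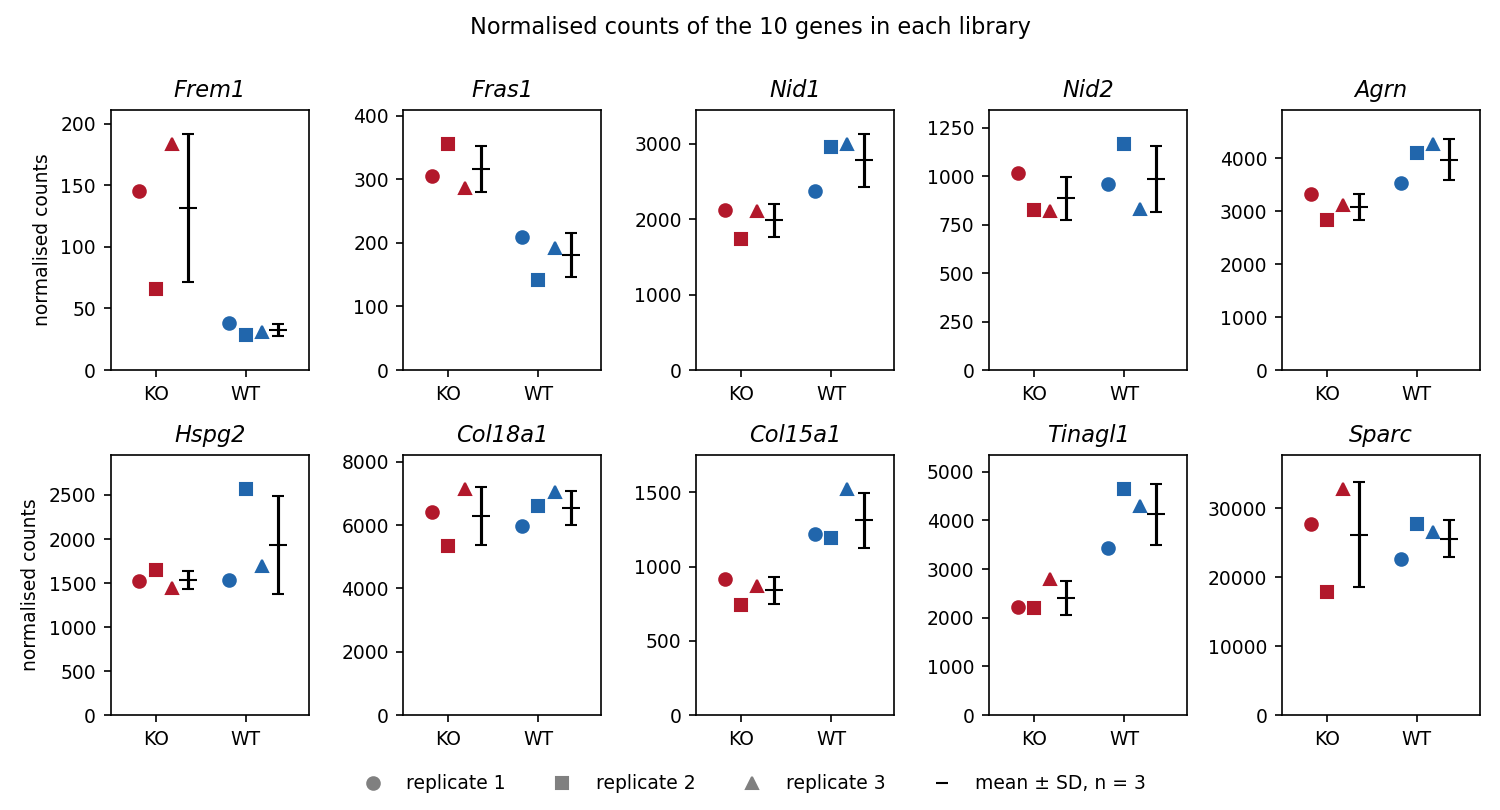
Normalised counts (linear axes from 0) of the 10 genes in each library, KO in red left of WT in blue. Circles, squares and triangles are replicates 1, 2 and 3, which are not stated to be paired. Black bars give the mean and SD of 3 libraries. Frem1 and Fras1 are higher in each KO library than in any WT library, and Nid1, Agrn, Col15a1 and Tinagl1 are lower.

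Promoter windows are shown for the genes called between genotypes for which RefSeq gave a start site on GRCm38.p6 (mm10), since genes that move together can be compared there. Windows were found for 8 of the 10 genes, not for Nid2 and Fras1. Each runs from 250 bases before to 50 after a start, 5′ to 3′ along the strand of the gene. Capitals mark letters of the motifs GGGCGG, which is the GC box, TATAAA, which is the TATA box, and GGAATG, which is bound by TEAD factors. They also mark TGANTCA, a loose form of the AP-1 site in which N is any base. Both strands were searched, matches may overlap, and TGANTCA reads alike on both strands. These are, in order, Frem1 at the more upstream of its 2 starts (chr4:83052117-83052416, minus strand), Nid1 (chr13:13437352-13437651, plus strand), Col15a1 (chr4:47207762-47208061, plus strand), Tinagl1 at its upstream start (chr4:130175073-130175372, minus strand) and Tinagl1 at its downstream start (chr4:130174753-130175052, minus strand).
Frem1: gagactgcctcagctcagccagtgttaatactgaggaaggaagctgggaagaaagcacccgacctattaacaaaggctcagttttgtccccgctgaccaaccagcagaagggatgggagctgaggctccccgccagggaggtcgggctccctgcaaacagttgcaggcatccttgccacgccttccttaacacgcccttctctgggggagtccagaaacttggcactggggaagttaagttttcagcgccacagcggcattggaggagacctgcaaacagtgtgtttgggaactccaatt
Nid1: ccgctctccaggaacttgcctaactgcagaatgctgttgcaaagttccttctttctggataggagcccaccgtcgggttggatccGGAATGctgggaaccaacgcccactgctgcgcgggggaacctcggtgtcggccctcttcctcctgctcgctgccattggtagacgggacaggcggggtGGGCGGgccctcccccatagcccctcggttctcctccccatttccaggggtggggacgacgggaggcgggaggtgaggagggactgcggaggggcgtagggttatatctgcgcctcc
Col15a1: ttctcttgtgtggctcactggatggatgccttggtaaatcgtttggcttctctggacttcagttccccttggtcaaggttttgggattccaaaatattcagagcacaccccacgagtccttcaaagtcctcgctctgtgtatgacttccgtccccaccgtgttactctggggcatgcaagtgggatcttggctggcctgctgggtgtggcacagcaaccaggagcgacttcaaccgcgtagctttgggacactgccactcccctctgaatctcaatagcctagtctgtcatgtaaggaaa
Tinagl1 upstream: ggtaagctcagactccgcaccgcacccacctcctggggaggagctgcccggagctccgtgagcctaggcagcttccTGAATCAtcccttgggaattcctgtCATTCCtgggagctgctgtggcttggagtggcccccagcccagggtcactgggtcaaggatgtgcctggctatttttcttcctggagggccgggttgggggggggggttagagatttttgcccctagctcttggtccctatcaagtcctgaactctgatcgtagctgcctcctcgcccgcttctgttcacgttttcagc
Tinagl1 downstream: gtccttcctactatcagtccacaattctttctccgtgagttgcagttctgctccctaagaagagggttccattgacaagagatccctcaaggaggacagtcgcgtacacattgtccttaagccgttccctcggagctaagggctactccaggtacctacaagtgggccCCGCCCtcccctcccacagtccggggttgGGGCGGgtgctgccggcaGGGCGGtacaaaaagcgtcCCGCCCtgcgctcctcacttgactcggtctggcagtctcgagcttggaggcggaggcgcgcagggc
Among 32544 distinct promoter windows, 35.9% held the GC box, 13.6% the TATA box, 14.6% the TEAD motif and 7.79% the loose AP-1 motif. Windows of 1 chromosome were left out of this background. The Frem1 and Col15a1 windows held none of the 4 motifs, and the other Frem1 window, at chr4:83021053-83021352, held none either. The Nid1 window held 1 GC box and 1 TEAD motif. The upstream Tinagl1 window held 1 TEAD motif and 1 loose AP-1 motif with A at its centre. The downstream one held 4 GC boxes. None of the 4 motifs was shared by the 3 genes that fell. Of the genes that did not pass, Agrn had 12 GC boxes in its outer window (83.3% G and C, against a median of 53% over the 32544 windows). Hspg2 had 5 GC boxes, Col18a1 had 3 in its outer window and Sparc had none of the 4 motifs. The inner Agrn window held 2 GC boxes and the inner Col18a1 window 2 TEAD motifs. A match describes letters in a window and says nothing on whether a factor binds there.

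Frem1 had the largest change of the 10 and also the lowest level. Frem1 (NCBI Gene 329872; chromosome 4, 82897920 to 83052506, minus strand) encodes the Fras1-related extracellular matrix protein 1. Its normalised counts were 145, 66.0 and 184 in KO, against 38.0, 28.7 and 30.5 in WT. Every KO library was above every WT library, but KO-2 was closer to the WT libraries than to KO-3. The mean was 132 ± 60.0 in KO and 32.4 ± 4.95 in WT (SD, n = 3 each), a ratio of 4.07 and a log2 fold change of 1.88 (SE 0.38, 95% interval 0.996 to 2.76, limma adjusted p = 0.0286). Within WT, the highest was WT-1, as for the tubule markers, but WT-1, WT-2 and WT-3 had only 35, 29 and 37 Frem1 reads. Within KO, Frem1 was highest in KO-3 and lowest in KO-2. The proximal tubule sum was lowest in KO-1 (264320), and the distal tubule sum was highest in KO-2 (64758). The part of these markers was not tested. The Frem1 values rest on few reads, 61 to 164 per KO library and 29 to 37 per WT library. By size of log2 fold change it was number 146 of the 13946 genes. The library with the most Frem1, KO-3, also had the highest summed count of 12 immune markers, 2233. That sum was 1439 in KO-1, 861 in KO-2 and 823 to 1526 in WT, with WT-3 above KO-1 and KO-2, unlike Frem1. KO-3 was also the highest library for the proximal tubule sum (417730) and the smooth muscle and renin cell sum (6560). None of the 11 immune markers tested passed, and the part of these lists was not tested. Without KO-2, KO-3, WT-2 or WT-3, the limma adjusted p of Frem1 was 0.0693, 0.0696, 0.107 and 0.106. Its log2 fold change ran from 1.58 to 2.31 over the left-out libraries.

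Fras1 rose as well, and its KO libraries lay closer together than those of Frem1. Fras1 (NCBI Gene 231470; chromosome 5, 96373777 to 96784733, plus strand) encodes Fraser extracellular matrix complex subunit 1, whose human counterpart is mutated in Fraser syndrome. It had 306, 356 and 287 normalised counts in KO, against 210, 142 and 192 in WT. All KO libraries lay above all WT libraries, and WT-1 was the highest of WT, as it was for the proximal and distal tubule markers. The libraries ranked by Fras1 as they did by the distal tubule sum, except that KO-3 and WT-1, nearly equal in that sum, changed places; the part of these markers was not tested. The mean was 316 ± 35.9 in KO and 181 ± 35.3 in WT (SD, n = 3 each), a ratio of 1.75. The log2 fold change was 0.82 (SE 0.17, 95% interval 0.41 to 1.22, limma adjusted p = 0.0294). Without KO-2, KO-3, WT-2 or WT-3, the limma adjusted p was 0.109, 0.0696, 0.107 and 0.106. Col15a1 and Tinagl1 had these same values, since the adjustment over all genes can give many genes 1 shared value. The log2 fold change of Fras1 ran from 0.65 to 0.93 over the left-out libraries. Frem2, the other subunit of the Fraser complex, had 116, 117 and 90.7 normalised counts in KO and 99.9, 120 and 93.0 in WT (log2 fold change 0.05, SE 0.18, limma adjusted p = 0.861). Grip1, the adaptor that in mice brings these proteins to the cell surface, had 32.8, 32.5 and 43.1 in KO and 42.4, 39.6 and 34.6 in WT (limma adjusted p = 0.752). Both Frem2 and Grip1 overlapped between the genotypes; they were singled out for their role, after their values were seen. Frem3, a further relative, rose at a very low level, with 23.0, 19.5 and 38.6 normalised counts in KO, against 7.60, 4.95 and 1.65 in WT (log2 fold change 2.39, SE 0.54, limma adjusted p = 0.0304).

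The nidogens differed in their calls. Nid1 (NCBI Gene 18073; chromosome 13, 13437602 to 13512275, plus strand), the classic linker of laminin to type IV collagen, had 2125, 1736 and 2106 normalised counts in KO, against 2378, 2964 and 3004 in WT. The groups did not overlap, with WT-1 the WT library nearest to KO. Its mean was 1989 ± 219 in KO and 2782 ± 351 in WT (SD, n = 3 each), a log2 fold change of -0.48 (SE 0.13, 95% interval -0.79 to -0.18, limma adjusted p = 0.0408). Nid1 had the largest adjusted p of the 5 genes called, and it was 0.0597 without KO-1, 0.134 without KO-2, 0.0769 without KO-3, 0.137 without WT-2 and 0.136 without WT-3. Nid2 (NCBI Gene 18074; chromosome 14, 19751257 to 19811787, plus strand), the second nidogen, had 1014, 824 and 821 normalised counts in KO and 959, 1168 and 829 in WT. These groups overlapped, and the log2 fold change was -0.15 (SE 0.15, 95% interval -0.49 to 0.20, limma adjusted p = 0.5). It was -0.02 without WT-2 and -0.26 without WT-3, the lowest and highest in size when each library was left out. Exons of Rtraf on the opposite strand overlap those of Nid2, and Rtraf had 1054 to 1302 normalised counts in KO and 878 to 1043 in WT; with the strand setting of the counting unknown, reads of this overlap cannot be assigned with certainty. Antisense genes with no counts here also overlap exons of Nid1, Col15a1 and Fras1. The ratio of Nid1 to Nid2 within a library was 2.09, 2.11 and 2.56 in KO and 2.48, 2.54 and 3.62 in WT, a log2 difference of -0.34 (two-sided exact permutation p = 0.3, adjusted p = 0.4 over the 4 gene pairs compared). It was -0.16 without WT-3. A difference in response between the nidogens was not shown.

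The heparan sulfate proteoglycans of the matrix were somewhat lower on average in KO, without a call. Agrn (NCBI Gene 11603; chromosome 4, 156165290 to 156197533, minus strand) encodes agrin, a major heparan sulfate proteoglycan of the glomerular basement membrane that binds laminin and dystroglycan. It had 3317, 2826 and 3117 normalised counts in KO, against 3538, 4106 and 4276 in WT. The groups did not overlap, but the gap between KO-1 and WT-1 was small. The mean was 3087 ± 247 in KO and 3973 ± 386 in WT (SD, n = 3 each), a log2 fold change of -0.36 (SE 0.11, 95% interval -0.63 to -0.10), and the limma adjusted p of 0.0564 missed the threshold. It passed without WT-1 (limma adjusted p = 0.0214), with upper quartile scaling (limma adjusted p = 0.046) and in DESeq2 (adjusted p = 0.029), settings that called 30.8%, 23.9% and 27.4% of all genes. The limma fit of all libraries and edgeR called 22.1% and 20.4%. Hspg2 (NCBI Gene 15530; chromosome 4, 137468751 to 137570630, plus strand) encodes perlecan, which in the adult glomerulus is found more in mesangial matrix than in the capillary wall. Its normalised counts were 1528, 1648 and 1443 in KO and 1537, 2570 and 1688 in WT. WT-2 stood well above the other WT libraries, and WT-1 lay inside the KO range. The log2 fold change was -0.29 (SE 0.19, 95% interval -0.73 to 0.15, limma adjusted p = 0.283), and it was -0.07 without WT-2. The ratio of Agrn to Hspg2 within a library was 2.17, 1.71 and 2.16 in KO and 2.30, 1.598 and 2.53 in WT, with overlapping groups (two-sided exact permutation p = 0.8, adjusted p = 0.8 over the 4 pairs).

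Of the endostatin-bearing collagens, Col15a1 fell and Col18a1 did not pass. Col15a1 (NCBI Gene 12819; chromosome 4, 47207655 to 47313167, plus strand) encodes collagen XV, which lies at the outer face of capillary and muscle basement membranes. It had 913, 738 and 870 normalised counts in KO, against 1218, 1190 and 1523 in WT. Every KO library was below every WT library, and WT-3 was the highest of all. The mean was 841 ± 91.1 in KO and 1310 ± 185 in WT (SD, n = 3 each), a ratio of 0.642. The log2 fold change was -0.64 (SE 0.13, 95% interval -0.94 to -0.33, limma adjusted p = 0.0286). Without KO-2, KO-3, WT-2 or WT-3, the limma adjusted p was 0.109, 0.0696, 0.107 and 0.106, as for Fras1. The log2 fold change ran from -0.70 to -0.52 over the left-out libraries. Col18a1 (NCBI Gene 12822; chromosome 10, 77052178 to 77166530, minus strand) encodes collagen XVIII, which carries heparan sulfate and releases endostatin from its end. It had 6404, 5325 and 7146 normalised counts in KO and 5960, 6597 and 7036 in WT. KO-2 and KO-3 lay below and above all WT libraries, and the log2 fold change was -0.06 (SE 0.14, 95% interval -0.39 to 0.27, limma adjusted p = 0.772). The ratio of Col18a1 to Col15a1 was 7.01, 7.21 and 8.22 in KO and 4.89, 5.55 and 4.62 in WT. All KO ratios exceeded all WT ratios, with a log2 difference of 0.58 (two-sided exact permutation p = 0.1, the smallest possible with 3 against 3; adjusted p = 0.4 over the 4 pairs). Such a ratio does not depend on how a library was scaled.

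**Figure D2:**
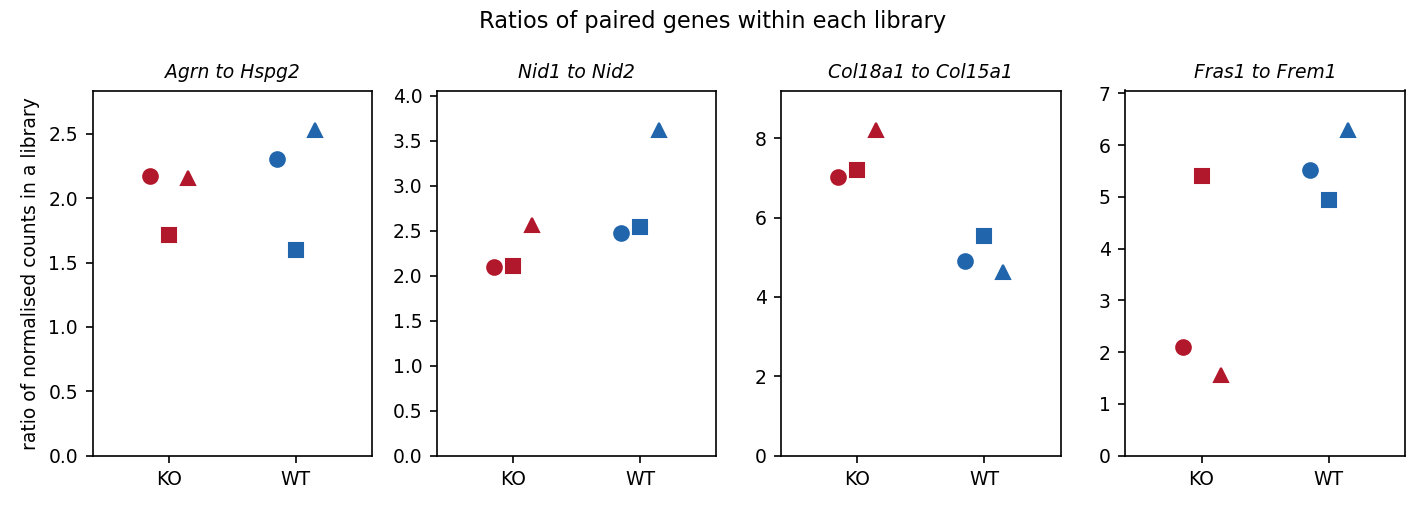
Ratio of the normalised counts of paired genes within each library (linear axes from 0), KO in red left of WT in blue; circles, squares and triangles are replicates 1, 2 and 3. The Col18a1 to Col15a1 ratio is 7.01 to 8.22 in KO and 4.62 to 5.55 in WT, while the ratios of the other pairs overlap between the genotypes.

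The ratio of Fras1 to Frem1 spread widely in KO. It was 2.10, 5.39 and 1.56 in KO and 5.51, 4.93 and 6.30 in WT. KO-2 lay within the WT range and the other KO libraries lay below it. The log2 difference was -1.06 (two-sided exact permutation p = 0.2, adjusted p = 0.4 over the 4 pairs). It was -1.58 without KO-2 and -0.70 without KO-3.

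Tinagl1 had the largest decrease of the 10, and Sparc, the most abundant, showed no shared direction. Tinagl1 (NCBI Gene 94242; chromosome 4, 130165600 to 130175122, minus strand) encodes tubulointerstitial nephritis antigen-like 1, a secreted protein of basement membranes. It had 2231, 2195 and 2808 normalised counts in KO, against 3437, 4651 and 4307 in WT. The groups were clearly apart, the highest KO library standing below the lowest WT library. The mean was 2411 ± 344 in KO and 4132 ± 625 in WT (SD, n = 3 each), a ratio of 0.584. The log2 fold change was -0.77 (SE 0.15, 95% interval -1.13 to -0.42, limma adjusted p = 0.0286). Without KO-2, KO-3, WT-2 or WT-3, the limma adjusted p was 0.109, 0.0696, 0.107 and 0.106, as for Fras1. The log2 fold change ran from -0.90 to -0.68 over the left-out libraries. Its relative Tinag, named here after its values were seen and known from tubular basement membranes, rose: 832, 1201 and 1311 normalised counts in KO and 680, 297 and 287 in WT (log2 fold change 1.496, SE 0.34, limma adjusted p = 0.0304). WT-1 was the WT library with the most Tinag, as for the proximal tubule markers.

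Sparc (NCBI Gene 20692; chromosome 11, 55394159 to 55420080, minus strand) encodes a small glycoprotein that binds collagens, type IV collagen among them. It had 27745, 17921 and 32806 normalised counts in KO and 22572, 27740 and 26478 in WT. The KO libraries spanned the whole WT range, from below it in KO-2 to above it in KO-3. The mean was 26157 ± 7568 in KO and 25597 ± 2695 in WT (SD, n = 3 each). The log2 fold change was -0.0078 (SE 0.26, 95% interval -0.61 to 0.60, limma adjusted p = 0.984), of opposite sign to the ratio of the means, 1.02. The interval allows a difference of either sign that is as large as the one of Nid1.

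**Figure D3:**
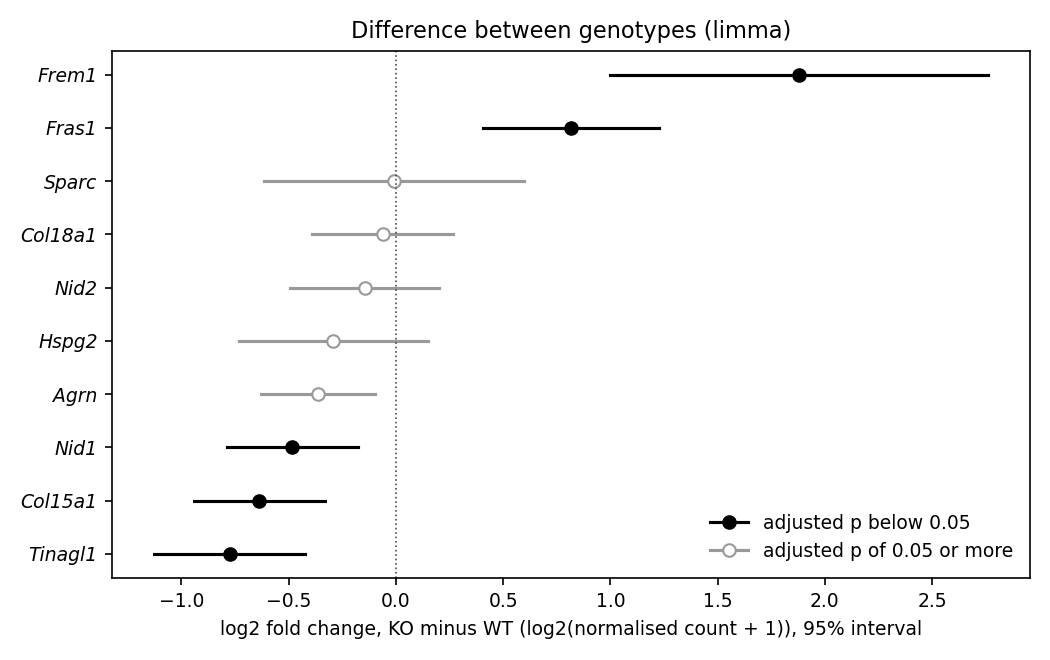
Log2 fold change of each gene, KO minus WT, on log2(normalised count + 1), with its 95% interval from limma; filled black points passed an adjusted p of 0.05 and open grey points did not. Frem1 (1.88) and Fras1 (0.82) lie above 0, Tinagl1 (-0.77), Col15a1 (-0.64) and Nid1 (-0.48) lie below it.

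Per length, the levels spanned from Sparc down to Frem1. Divided by the union of annotated exons in kb, KO means of normalised counts per kb (± SD, n = 3) were 6905 ± 1998 for Sparc, 896 ± 130 for Col18a1, 553 ± 78.9 for Tinagl1, 332 ± 26.6 for Agrn, 286 ± 31.6 for Nid1, 171 ± 21.4 for Nid2, 132 ± 14.3 for Col15a1, 108 ± 7.17 for Hspg2, 17.9 ± 2.02 for Fras1 and 9.42 ± 4.29 for Frem1. In WT the means on the same scale were 6757 ± 711 for Sparc, 948 ± 144 for Tinagl1, 930 ± 77.1 for Col18a1, 428 ± 41.6 for Agrn, 401 ± 50.5 for Nid1, 206 ± 29.1 for Col15a1, 190 ± 33 for Nid2, 135 ± 39 for Hspg2, 10.2 ± 1.99 for Fras1 and 2.32 ± 0.354 for Frem1. Tinagl1 thus stood next to Col18a1 in WT, where their ranges over libraries overlapped, and below it in every KO library. Col15a1 and Nid2 overlapped in WT, and in KO every Nid2 value lay above every Col15a1 value. Agrn and Nid1 overlapped in both genotypes, and Nid2 and Hspg2 overlapped in WT. All other neighbours in these orders were apart. Fras1 and Frem1 were the lowest of the 10 in both genotypes. The exon union counts every annotated isoform, so levels per kb of genes with many short or intron-retaining isoforms are understated.

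**Figure D4:**
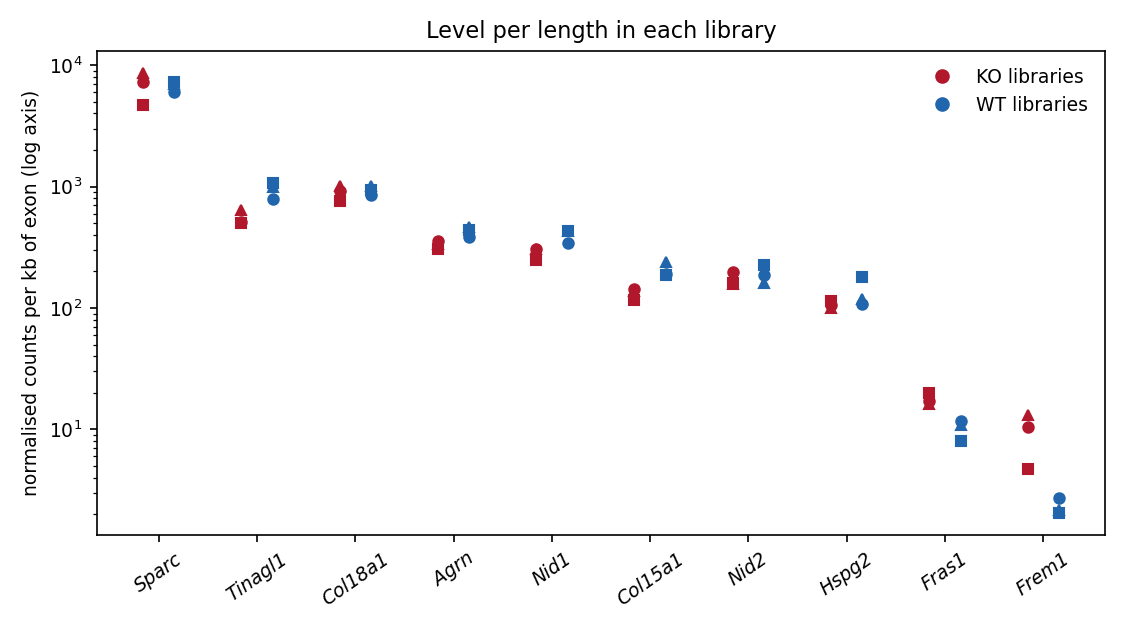
Normalised counts per kb of annotated exon (log axis) of the 10 genes, ordered by their WT mean, with KO libraries in red left of WT libraries in blue; circles, squares and triangles are replicates 1, 2 and 3. Sparc averages 6905 in KO and 6757 in WT, whereas Fras1 and Frem1 average 17.9 and 9.42 in KO and 10.2 and 2.32 in WT.

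Profiles over the 6 libraries were compared by the root mean square difference of centred log2 values, as a description. Among the 45 pairs of the 10 genes, Agrn and Nid1 were nearest, at 0.078, followed by Nid1 and Col15a1 at 0.139 and Col18a1 and Sparc at 0.149. The nearest of the set to Agrn, which was not called, was thus Nid1, which fell. Among 11704 genes with a mean of at least 50, the nearest to Nid1 were Msrb3 (0.012) and Flt4 (0.017). Those nearest to Col15a1 were Kank4 (0.061) and Smox (0.062). Nearest to Tinagl1 were Sox17 (0.039), a transcription factor and one of the endothelial markers, and Sdc3 (0.051), a cell surface heparan sulfate proteoglycan. Nearest to Fras1 were Itpr2 (0.076) and Gphn (0.083), and nearest to Frem1 were Epha6 (0.194) and Prss23 (0.262), a looser match. Of the 10 genes, 5 lie on chromosome 4, namely Frem1, Col15a1, Tinagl1, Hspg2 and Agrn, spread over the chromosome, and of their fold changes 1 was positive and 4 were negative.

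Genes in the lists of other basement membrane genes were called about as often as all genes, 7 of 31 (22.6%, against 22.1%). These lists also hold Ddr1, a receptor that was called, and Grip1, an adaptor that was not. Of 16 type IV collagen and laminin chains tested, 1 rose and 1 fell (6.25% each, against 13.5% and 8.58% of all genes), with a median log2 fold change of -0.10. Lama1, a laminin chain of epithelial and developing basement membranes, had 106, 123 and 120 normalised counts in KO and 54.3, 25.7 and 35.4 in WT (log2 fold change 1.64, SE 0.28, limma adjusted p = 0.0286). Lama5, the alpha chain of the mature glomerular laminin, had 2381, 1978 and 2172 in KO and 2702, 2811 and 3203 in WT (log2 fold change -0.42, SE 0.11, limma adjusted p = 0.0381). Of 15 further components tested (5 of the 20 were below the minimum), 4 rose (26.7%, against 13.5% of all genes) and 1 fell (6.67%, against 8.58%), with a median of 0.12. Besides Frem3 and Tinag, those that rose were Hmcn2 (hemicentin 2, log2 fold change 1.73) and Ddr1 (a collagen receptor, 0.66), and Ntn4 (netrin 4, which binds laminin) fell by 0.53 on the log2 scale. Ddr1 had 2235, 2169 and 2274 normalised counts in KO and 1640, 1320 and 1300 in WT. For Lama1, Hmcn2 and Ddr1 alike the top WT library was WT-1, as it was for the proximal tubule markers, whose part was not tested.

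Enzymes and surface proteoglycans of heparan sulfate had more genes called lower than higher. Of 22 genes that build or edit the chain, 4 fell (18.2%, against 8.58% of all genes) and 1 rose (4.55%, against 13.5%). Their median log2 fold change was -0.21, and 14 of the 22 had KO and WT libraries apart with KO lower, where 21.9% of all genes did. Those that fell were the 3-O-sulfotransferases Hs3st3b1 (1594 ± 118 in KO and 2763 ± 531 in WT, SD, n = 3 each), Hs3st6 (log2 fold change -0.63) and Hs3st3a1 (-0.36, named after its value was seen), and the sulfatase Sulf1 (-0.70), which trims sulfate from finished chains. Hs6st1, a 6-O-sulfotransferase, rose, with 1190, 1575 and 1227 normalised counts in KO and 889, 523 and 551 in WT (log2 fold change 1.05, SE 0.22, limma adjusted p = 0.0286). Of 9 surface heparan sulfate proteoglycans tested, 4 fell (44.4%, against 8.58% of all genes) and 1 rose (11.1%, against 13.5%), with a median of -0.73. Sdc1 (log2 fold change -0.90) had 416, 328 and 366 normalised counts in KO and 601, 736 and 731 in WT. Gpc1 (log2 fold change -0.89) had 1014, 974 and 812 in KO and 1386, 2055 and 1800 in WT. Sdc3 and Gpc6 fell by 0.74 and 0.97 on the log2 scale. Gpc4, named after its value was seen, rose (1.13), with 832, 1299 and 1128 normalised counts in KO and 732, 452 and 348 in WT. Within WT, Gpc4 and Hs6st1 were both highest in WT-1, as were the tubule markers. Of the genes that fell, Sdc1, Sdc3, Gpc1, Hs3st3b1, Hs3st6, Hs3st3a1 and Sulf1 were lowest in WT-1 within WT, but Gpc6 was lowest in WT-2. The summed podocyte, endothelial and mesangial markers were lowest in WT-1 too, and 40%, 80% and 83.3% of these markers were called lower. The part of all these markers was not tested. Sdc4, which had the most counts of these and was named after its values were seen, had a log2 fold change of -0.02 (limma adjusted p = 0.927).

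Receptors of these proteins gave 5 lower (31.25%, against 8.58% of all genes) and 1 higher (6.25%, against 13.5%) among 16 tested, with a median log2 fold change of -0.10. Itga8, an integrin chain of mesangial cells that binds nephronectin, had 5109, 4323 and 3808 normalised counts in KO and 6616, 7835 and 8312 in WT (log2 fold change -0.79, SE 0.15, limma adjusted p = 0.0286). Ddr2 (-0.78), Kdr (-0.61) and Itgb5 (-0.65) fell too, as did Stab1 (-0.38), which takes up Sparc. Itga8 and Kdr also stand in the mesangial and endothelial marker lists, most of whose genes fell. Lrp4, a receptor of agrin at the nerve-muscle junction, rose, with 130, 165 and 144 normalised counts in KO and 112, 65.3 and 75.7 in WT (log2 fold change 0.82, limma adjusted p = 0.0425). WT-1 was again the top WT library for Lrp4. Lrp4 and Stab1 were named after their values were seen. Dag1, the dystroglycan that binds agrin and perlecan, had 5849, 4557 and 3944 normalised counts in KO and 4487, 3634 and 4607 in WT, with overlapping groups (limma adjusted p = 0.509), and was singled out for its role. Calls over the whole table also changed with the libraries. Without KO-2, KO-3, WT-2 or WT-3, limma called 4, 3, 1 and 0 of all 13946 genes (0.0287%, 0.0215%, 0.00717% and 0%), although 4021, 4924, 3939 and 4048 had an unadjusted p under 0.05. Without KO-1 it called 14.8%.

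**Figure D5:**
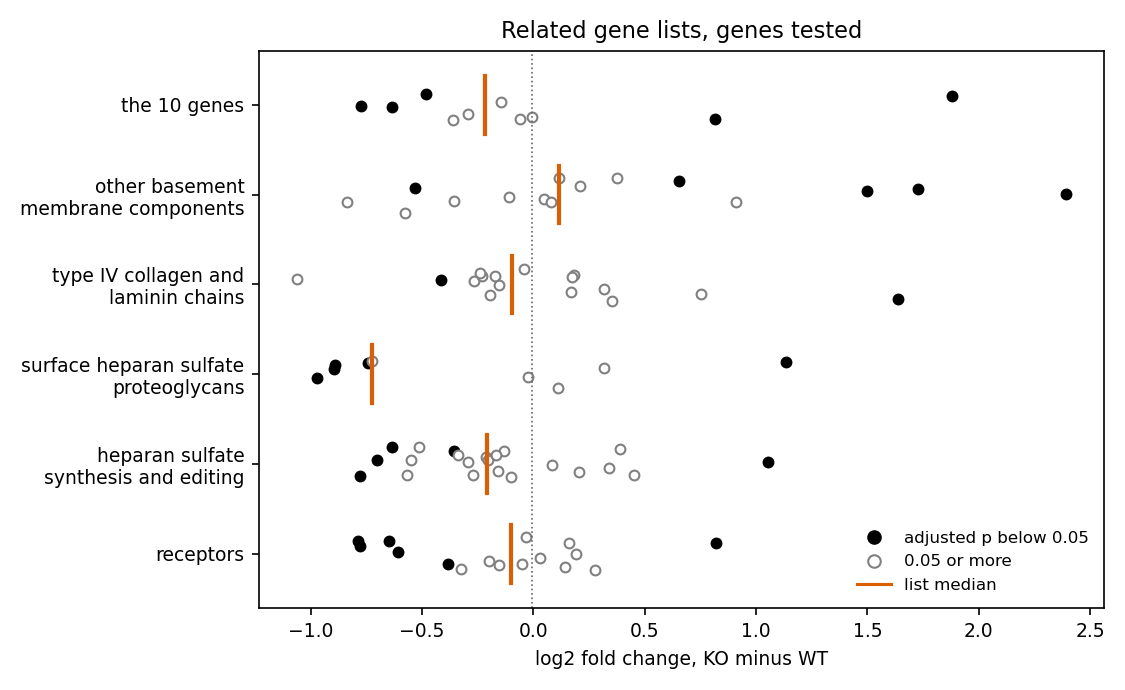
Log2 fold change, KO minus WT, of each gene tested in the 10-gene set and the 5 related lists; filled points passed an adjusted p of 0.05, open points did not, orange bars are list medians, and the dotted line is the median of all genes. Medians run from -0.73 for surface heparan sulfate proteoglycans to 0.12 for other basement membrane components.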

How the data were processed

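RNA-seq of glomeruli from 3 KO and 3 WT mice was analysed. The authors deposited normalised counts, a signal of reads scaled by a factor for each library, per the file headers; that these are scaled reads was read from the values. The submitters' processing notes name HISAT2 2.1, featureCounts 1.6.4, DESeq2 2.11.40.6 and mm10; strand setting and annotation: not given in the sources used here. Values were whole multiples of a step per library (100% at a tolerance of 0.01), which gave whole reads. Symbols came from RefSeq (25275 of 27179 identifiers) and GENCODE M21 (25292 in all); exon lengths came from GENCODE M21. Genotypes were compared by limma 3.58.1 (R 4.3.3) with a variance trend on log2(normalised count + 1), with genotype as its only term, for genes with a mean of at least 10. Fold changes on this scale understate those of low genes. Alternatives were count models fitted to those reads (edgeR 4.0.16, DESeq2 1.42.0), TMM and upper quartile scaling, other pseudocounts, filters and priors, a replicate block and leaving out each library. The limma, edgeR and DESeq2 fits were tested on simulated data. These lacked the genes counted almost only in a single library and had far fewer changed genes than were called here. The simulation thus does not cover those conditions. The 10 genes and the related lists were chosen with earlier results of these data known. Genes outside the 10 were named as up to 4 called genes per list, taken by smallest adjusted p, plus the 2 nearest profiles per called gene; exceptions are marked. P-values rest on the spread between these mice. In limma the variance of each gene is also drawn towards a trend over all genes.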

Additional observations from a re-analysis of the deposited data

How the results depend on the processing

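The 5 called genes kept their direction in all 84 fits under alternatives, but most of these fits could not have reversed that direction. KO and WT libraries do not overlap in these genes, so leaving out a library or changing the pseudocount keeps the sign. The block, trend, prior and filter settings leave the fold change as it was. The calls did not hold throughout. The count of genes called was 5 of 10 (2 higher, 3 lower), where 22.1% of all genes tested were called. It was 5 in edgeR and 6 in DESeq2, where 20.4% and 27.4% of all genes were called. When limma had no variance trend it was 0, with 6 of the 10 at an unadjusted p below 0.05. In that fit 1 gene of 13946 was called. It ranged from 0 to 6 when each library was left out in turn (0 to 2 higher, 0 to 4 lower): 0 without KO-2, KO-3, WT-2 or WT-3, 4 without KO-1 and 6 without WT-1, with 5 to 7 of the 10 at an unadjusted p below 0.05. With a minimum mean of 100, Frem1 was not tested and 1 gene was called higher, as were 16% of all genes tested. With the replicate number as a block the count was 0 (5 at an unadjusted p below 0.05, and 0 of all genes called). Same-numbered KO and WT libraries did not deviate together (correlations of -0.23, -0.19 and -0.01). With 3 libraries per group these correlations cannot show whether mice were paired, and no pairing is stated. The log2 fold change of Sparc was 0.032 in edgeR and 0.034 in DESeq2 and ran from -0.19 to 0.24 over the left-out libraries; that of Col18a1 ran from -0.16 to 0.054, and the Agrn to Hspg2 log2 difference from -0.27 to 0.063. The cause of these changes was not tested. Depth limits Frem1 most, at 29 to 164 reads per library.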
